A study of Rattus norvegicus with 6 samples.

Results

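The genes described here build, trim and supply the sugars of N-glycans. The list held 39 genes, chosen by name from the steps of the pathway, and 36 of them were measured by at least 1 probe set whose annotation gave that symbol alone, out of 14217 genes so measured with 31042 probe sets. By step, the measured genes were 10 of nucleotide sugar supply, 11 of the lipid-linked precursor, 5 of trimming in the endoplasmic reticulum (ER), 6 of Golgi processing, 3 transporters and Pofut2 of protein O-fucosylation. The list was chosen with earlier results of these data known. Gfpt1, Uap1 and Alg6 were not analysed here. Each gene was represented by the probe set with the highest mean over the 6 arrays.

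Beta cells were obtained by fluorescence-activated cell sorting (FACS) from male Wistar rats of 10 weeks of age, which either had been fasted for 24 h in vivo or had eaten ad libitum. Each group held 3 arrays, every array with the cells of 1 separate isolation from 5 pooled rats, so that differences between single rats cannot be seen. The sorted cells were frozen at once and the RNA of all isolates was extracted as 1 batch. No genetic alteration is given for either group, and the comparison asks which transcripts of beta cells differ when the animals have gone without food.

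N-glycans are assembled on the lipid dolichol in the ER membrane from activated sugars made in the cytosol, and the finished precursor is transferred as a block to asparagines of nascent proteins by the oligosaccharyltransferase. Glucosidases and mannosidases of the ER then trim it, and the state of trimming is read by the lectin chaperones and by the degradation machinery, so the same glycan reports on protein folding. In the Golgi the remaining mannoses are removed and N-acetylglucosamine, galactose, fucose and sialic acid are added. Beta cells use this route for the many glycosylated proteins of their secretory pathway and surface, whereas insulin itself carries no N-glycan.

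Intensities are linear and a change is the log2 ratio of fasted over fed. A transcript was called lower or higher when its fold was at least 1.5 and its unadjusted p in limma's moderated test was under 0.05, the thresholds the study used. The study applied them in other software and not in limma. It reported a smaller share of all transcripts as changed than is given below, so the calls are not the same. The p-values measure the spread between isolates. The number of arrays limits the precision, and with 3 arrays against 3 an exact permutation test cannot give less than 0.10. Median intensity over all probe sets was 17.2, 17.9 and 21 on the arrays of fasted rats and 21.2, 21.8 and 20.3 on those of fed rats, and the median log2 change of all probe sets was -0.20. Fasted replicate 1 stood apart, with correlations of log2 intensity of 0.877 to 0.929 with the other arrays. The other 5 correlated with each other at 0.933 to 0.961. Among them, fasted replicate 3 correlated more closely with the fed arrays (0.956, 0.958 and 0.958) than with fasted replicate 2 (0.945). Of the beta cell markers, Ins1 and Ins2 were near the top of the scale on all arrays, and 0 of the 7 measured markers were called. Markers of exocrine cells were bright as well.

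In beta cells of fasted rats 15 of the 36 transcripts passed as lower and 0 as higher, and 21 passed neither way. The share lower was 41.7%, against 8.43% of all probe sets, and 2.37% of all probe sets were higher. Among probe sets brighter than the median, where 35 of the 36 lay, 10.6% were lower, and among the brightest probe sets of all genes 9.51%. The lower transcripts were 3 of 10 of nucleotide sugar supply (Gnpnat1, Gmppa, Gmppb), 3 of 11 of the lipid-linked precursor (Alg1, Alg3, Alg12), 5 of 5 of ER trimming, 2 of 6 of Golgi processing (Man2a1, Mgat2) and 2 of 3 transporters (Slc35a2, Slc35b1). Gmppa and Slc35b1 had been picked out by the study for their fall on these same arrays and are no independent evidence of the direction. Without them 13 of 34 were lower, or 38.2%. These 34 were also chosen with earlier results of these data known, so neither share is independent of these arrays. In bulk RNA a lower intensity can come from fewer cells of a type or from less RNA per cell, and these cannot be told apart.

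Across the 36 transcripts 33 log2 changes were negative, beside 65.4% of all probe sets, and their median was -0.54, which is -0.34 relative to the median of all probe sets. For 23 members every fasted array was below every fed array, as for 17.6% of all probe sets, and for 1 member every fasted array was above, as for 5.24%. At an unadjusted p under 0.05 in limma with no fold threshold, 23 were lower and 1 higher, beside 11.6% and 3.25% of all probe sets. After Benjamini-Hochberg adjustment over all 31042 probe sets, limma left 0 members under 0.05, and the adjusted p of the 15 lower members lay between 0.167 and 0.329. The same held for the whole array, where 0 of the 31042 probe sets were under 0.05 and the lowest adjusted p in limma was 0.155.

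**Figure D1:**
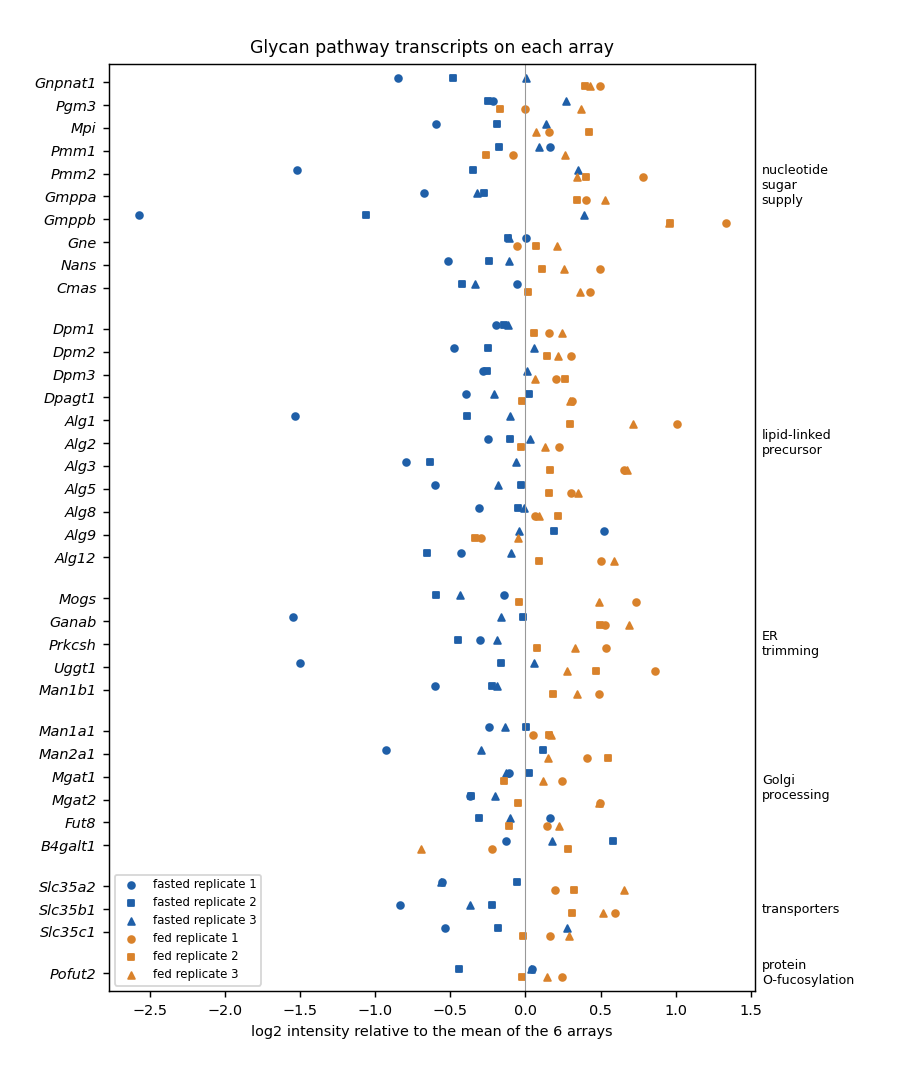
Log2 intensity of each of the 36 transcripts on each array, relative to the mean of the 6 arrays (horizontal axis), with fasted arrays in blue above fed arrays in orange and a symbol for each replicate. Fasted replicate 1 was the lowest array for 23 members, and Alg9 is the 1 member with all fasted arrays above all fed arrays.

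Which arrays carried the difference varied between the members. Fasted replicate 1 gave the lowest value of the 6 for 23 members (63.9%), beside 42.4% of all probe sets, and fed replicate 1 gave the highest for 17 and fed replicate 3 for 13. The median over the members, relative to the mean of the arrays, was -0.41, -0.22 and -0.11 on the fasted arrays and 0.31, 0.15 and 0.29 on the fed arrays, so that all 3 fasted arrays lay below all 3 fed arrays. The median of all probe sets was separated as well, by a narrower gap, with -0.25, -0.12 and 0.06 on the fasted arrays and 0.11, 0.11 and 0.07 on the fed arrays. Without fasted replicate 1, 13 members were lower (36.1%, beside 5.44% of all probe sets). Without fed replicate 1 the count was 7 (19.4%, beside 4.66%), and without fed replicate 3 it was 9 (25%, beside 5.72%). Scaling of the arrays also moved it, to 8 lower and 1 higher after quantile normalization (22.2% lower, beside 4.82% of all probe sets) and to 7 lower and 1 higher with arrays scaled to the 75th percentile (19.4%, beside 4.27%). Of all 31042 probe sets, 1263 and 1426 were higher under these scalings, in that order.

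**Figure D2:**
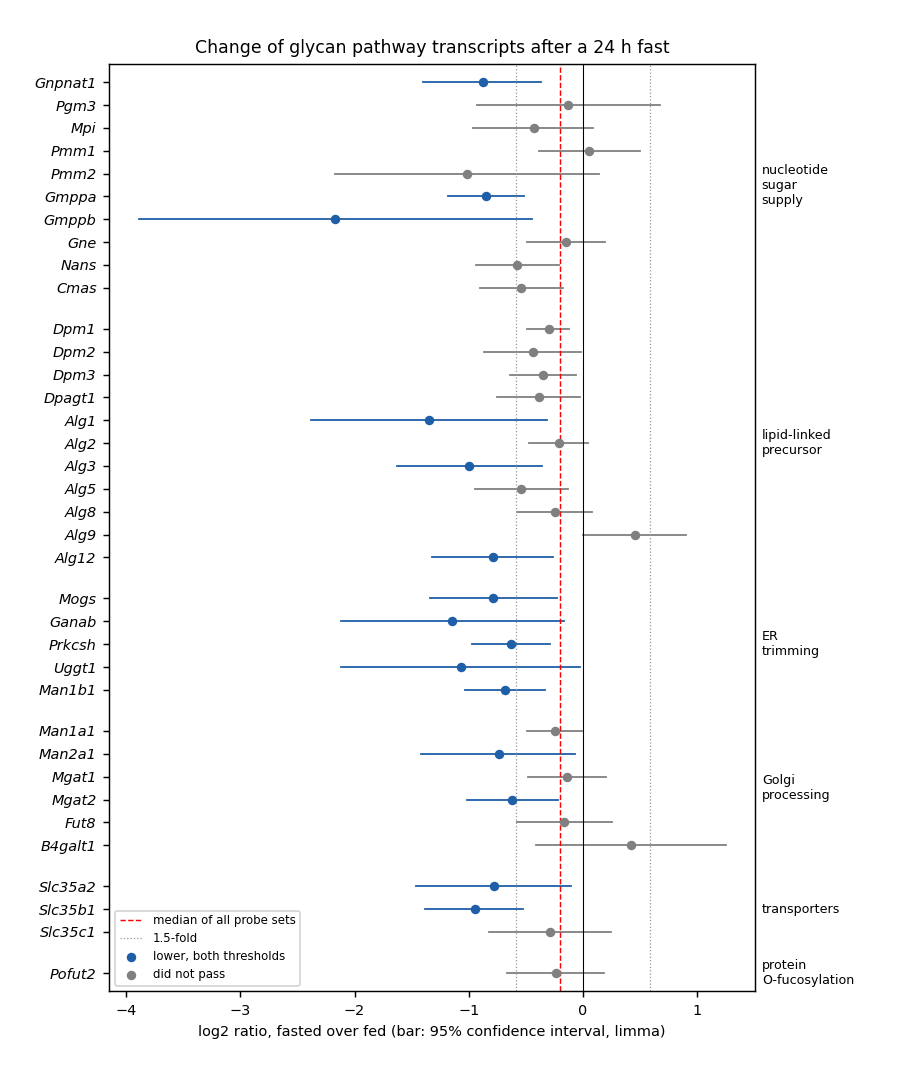
Log2 ratio of fasted over fed for each transcript (points) with its 95% confidence interval from limma (bars), in blue where both thresholds were passed and in grey otherwise; the dotted lines mark 1.5-fold and the dashed red line the median of all probe sets, -0.20. The 15 blue points lie between -0.62 and -2.17, and all 5 transcripts of ER trimming are among them.

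Trimming in the ER was the step at which every measured member was lower, 5 of 5. Their median log2 change was -0.79 (-0.58 relative to all probe sets). Of 5 further genes of this step outside the list, 1 was lower, and their median was -0.37. Mogs, glucosidase I, which removes the outermost glucose of the transferred glycan, had intensities of 158, 116 and 129 in fasted rats and 291, 169 and 245 in fed rats. The groups did not overlap, with fed replicate 2 the closest to the fasted arrays, and the log2 change was -0.79 (SE 0.23, limma adjusted p = 0.263). Glucosidase II removes the inner glucoses and thereby opens and closes the lectin chaperone cycle. Its catalytic subunit Ganab had 63, 182 and 164 in fasted rats and 266, 260 and 297 in fed rats, a log2 change of -1.15 (SE 0.40), with fasted replicate 1 far below the other fasted arrays. Its noncatalytic subunit Prkcsh had 381, 344 and 412 in fasted rats and 683, 496 and 592 in fed rats, which is -0.63 (SE 0.14, limma adjusted p = 0.199), with the fasted arrays close together.

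Uggt1, the folding sensor that puts a glucose back on misfolded glycoproteins, had intensities of 23.7, 59.7 and 69.5 in fasted rats and 122, 92.8 and 81 in fed rats. Its groups were separate by a small margin and its log2 change was -1.07 (SE 0.43, limma adjusted p = 0.329). Man1b1 trims mannose from glycoproteins that stay in the ER and so marks them for degradation. Its intensities were 309, 402 and 411 in fasted rats and 660, 533 and 596 in fed rats, a mean of 374 ± 56.3 against 596 ± 63.3 (SD, n = 3 each) and a log2 change of -0.68 (SE 0.14, limma adjusted p = 0.193). A dimmer probe set of Man1b1 had -0.52 and did not pass.

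Only some of these calls held when 1 array was left out. Mogs stayed lower without any 1 array, but not after scaling to the 75th percentile, where it had -0.54. Ganab lost the call without fed replicates 1, 2 or 3 (unadjusted p in limma 0.0682, 0.0665 and 0.0821) at log2 changes of -1.17, -1.19 and -1.09. Without fasted replicate 1 Ganab kept the call with a much smaller log2 change of -0.66. Prkcsh was under 1.5-fold without fasted replicate 2 (-0.56) or fed replicate 1 (-0.52), and Man1b1 without fasted replicate 1 (-0.55). Uggt1 was the least firm of the 5, since it did not pass without fasted replicate 2 (p in limma 0.0539) or without any 1 of the fed arrays (0.0703 to 0.139), and without fasted replicate 1 it had -0.59, just past 1.5-fold. The step thus counted 2 to 5 lower transcripts, with a median between -1.0 and -0.61, the 2 without fed replicate 1 and 3 without fasted replicate 2 or fed replicates 2 or 3. It counted 2 under quantile normalization and 1 under scaling to the 75th percentile.

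**Figure D3:**
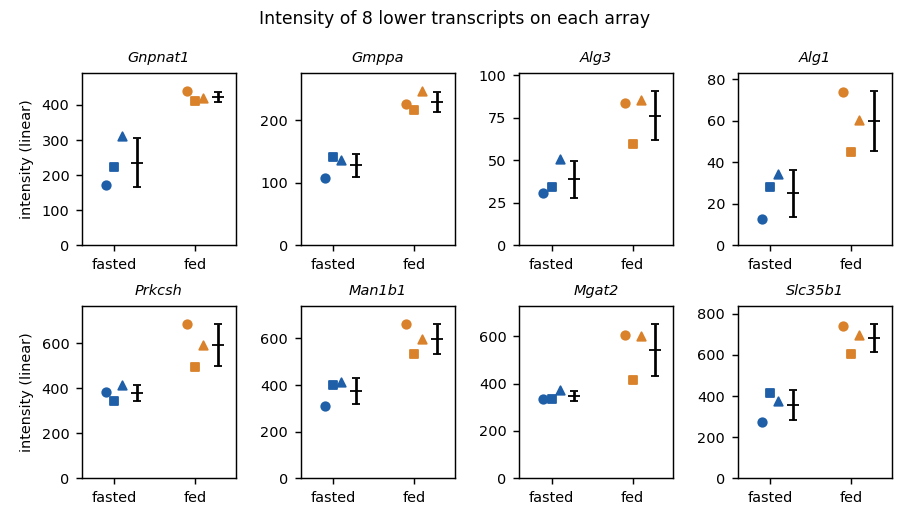
Linear intensity of 8 of the lower transcripts on each array (symbols by replicate, fasted in blue at the left and fed in orange at the right), with the mean and SD of each group in black, n = 3. In all 8 panels the highest fasted array lies below the lowest fed array.

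Nucleotide sugar supply had 3 lower transcripts of 10 and a median log2 change of -0.56 (-0.36 relative to all probe sets). These belong to the routes to UDP-N-acetylglucosamine and GDP-mannose, the first sugars of the glycan. Gnpnat1, which acetylates glucosamine 6-phosphate, had intensities of 173, 223 and 313 in fasted rats and 439, 411 and 420 in fed rats, a mean of 236 ± 71 against 423 ± 14.4 (SD, n = 3 each). All fed arrays were high and close together while the fasted arrays spread widely below them, and the log2 change was -0.88 (SE 0.21, limma adjusted p = 0.216). Gmppa, the regulatory subunit of GDP-mannose pyrophosphorylase, had 107, 141 and 136 in fasted rats and 225, 216 and 246 in fed rats. Its change of -0.85 (SE 0.14) had an adjusted p of 0.167 in limma, the lowest of all members.

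Gmppb is the catalytic subunit of the same enzyme and had the largest log2 change of the members, -2.17 (SE 0.71). Its intensities were 7.71, 22 and 60.1 in fasted rats and 116, 89.8 and 89.2 in fed rats. The fasted arrays differed among themselves by more than the gap to the fed arrays, with fasted replicate 1 very low and fasted replicate 3 not far below the fed arrays, and the call was lost without fasted replicate 2 (unadjusted p in limma 0.056) or without fed replicates 1, 2 or 3 (0.0692, 0.0559 and 0.0541). The size also turned on single fasted arrays, with a log2 change of -1.42 without fasted replicate 1 and -2.91 without fasted replicate 3. A second probe set of Gmppb, with 15.6, 20.5 and 48.4 in fasted rats and 97.4, 60.6 and 79.6 in fed rats, was lower too, by a log2 change of -1.64 (SE 0.45). The calls of Gnpnat1 and Gmppa held in all 17 alternatives run, as did those of Alg3 and Slc35b1, and no other called member held in all of them.

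Among the transcripts that make and activate sialic acid, Nans and Cmas lay just outside the 1.5-fold limit. Nans, the synthase of sialic acid 9-phosphate, had intensities of 172, 208 and 228 in fasted rats and 348, 265 and 294 in fed rats, a log2 change of -0.58 (SE 0.15, unadjusted p = 0.00816 in limma). The groups did not overlap, and Nans passed without fasted replicates 2 or 3 or fed replicates 2 or 3 (-0.60, -0.67, -0.67 and -0.59). A second probe set of Nans was lower, with 63.1, 73.3 and 87.8 in fasted rats and 166, 131 and 134 in fed rats (-0.95, SE 0.17), while a probe set of it that may share probes with other transcripts gave -0.01.

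Cmas, which couples sialic acid to CMP in the nucleus, had 927, 719 and 765 in fasted rats and 1297, 974 and 1241 in fed rats. Fasted replicate 1 was the highest of its group here, close below fed replicate 2, and the log2 change was -0.54 (SE 0.15, unadjusted p = 0.0101 in limma). It passed without fasted replicate 1 (-0.65) or fed replicate 2 (-0.67). Gne, the entry enzyme of the sialic acid route, had -0.15.

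The remaining supply transcripts did not pass. Pmm2, which makes mannose 1-phosphate, had -1.02 (SE 0.48) with overlapping groups, while a dimmer probe set of it was lower with -1.13 (SE 0.37) at 14.6, 29.1 and 37.5 in fasted rats and 53.1, 53.6 and 58.2 in fed rats. The brighter probe set of Pmm2 passed without fasted replicate 3, at -1.44, and had -0.51 without fasted replicate 1. Mpi, which links mannose to glucose metabolism, had -0.43, passed without fasted replicate 3 (-0.61) and had -0.24 without fasted replicate 1. Pgm3 had -0.13 and Pmm1 0.05. With 1 array left out, the step counted 2 to 6 lower transcripts. The 2 are those left without fed replicate 1, and the 6 those without fasted replicate 3, where 17.9% of all probe sets were lower.

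The lipid-linked precursor had 3 lower transcripts of 11 and a median log2 change of -0.39 (-0.19 relative to all probe sets). All 3 encode mannosyltransferases of the dolichol-linked glycan. Alg1 adds the first mannose on the cytosolic face, and its intensities were 12.7, 28.1 and 34.2 in fasted rats and 73.9, 45.2 and 60.5 in fed rats, a log2 change of -1.35 (SE 0.42, limma adjusted p = 0.274). Fasted replicate 1 was the lowest, the groups did not overlap, and the call was lost without fed replicate 1 (unadjusted p in limma 0.0694) or fed replicate 3 (0.0566), which left 2 lower transcripts in the step. Alg3 adds the first mannose on the lumenal face and had 30.8, 34.2 and 51 in fasted rats and 83.9, 59.8 and 85.1 in fed rats, which is -1.0 (SE 0.26, limma adjusted p = 0.23). Alg12 acts later on the same face and had 47.1, 40.3 and 59.3 in fasted rats and 90, 67.6 and 95.3 in fed rats. Its change of -0.79 (SE 0.22) held without any 1 array and was -0.54, short of 1.5-fold, under quantile normalization and under scaling to the 75th percentile.

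Several transcripts of this step had separate groups and small differences. Dpm1, the catalytic subunit of dolichol-phosphate-mannose synthase, had 609, 633 and 644 in fasted rats and 777, 726 and 824 in fed rats. Its values varied little within each group, and its log2 change was -0.30 (SE 0.08, unadjusted p = 0.00713 in limma). The partner subunits Dpm2 and Dpm3 had -0.44 and -0.35. Alg5, which makes the dolichol-linked glucose donor, had 87.9, 131 and 118 in fasted rats and 165, 149 and 170 in fed rats. Its log2 change of -0.54 (SE 0.17) was just under the limit, and it passed without fasted replicates 2 or 3 or fed replicate 2 (-0.66, -0.59 and -0.60). Dpagt1, which starts the precursor and is the target of tunicamycin, had -0.39 with overlapping groups, and Alg2 and Alg8 had -0.21 and -0.25.

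Alg9 went the other way and is named because of its values. This mannosyltransferase works between Alg3 and Alg12, and its intensities were 121, 96.1 and 81.7 in fasted rats and 68.6, 66.8 and 81.2 in fed rats. Every fasted array was above every fed array, fasted replicate 3 only just above fed replicate 3. The log2 change was 0.45 (SE 0.18, unadjusted p = 0.0489 in limma), under 1.5-fold. Alg9 passed both thresholds under quantile normalization (0.65) and scaling to the 75th percentile (0.69). Under these scalings 1263 and 1426 of all 31042 probe sets were higher, in that order. Thus within 1 chain of mannosyltransferases Alg3 and Alg12 were lower and Alg9 had the opposite sign, though the difference between these transcripts was not tested.

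Golgi processing had 2 lower transcripts of 6 and a median log2 change of -0.21, which is -0.01 relative to all probe sets. Its median depended on the scaling. It turned to 0.04 with arrays scaled to the 75th percentile and was -0.03 with quantile normalization, and 0 transcripts were lower under both. Mgat2, the N-acetylglucosaminyltransferase that starts the second branch of complex glycans, had 333, 334 and 373 in fasted rats and 605, 415 and 602 in fed rats (-0.62, SE 0.16, limma adjusted p = 0.234). Its fasted arrays were close together and below all fed arrays, and without fed replicates 1 or 3 it had -0.53, under 1.5-fold, and the step then counted 0 lower transcripts. Man2a1, the Golgi mannosidase II that acts just before Mgat2, had 57.9, 119 and 89.8 in fasted rats and 146, 162 and 122 in fed rats. Fasted replicate 2 nearly reached fed replicate 3. Its log2 change of -0.74 (SE 0.28, limma adjusted p = 0.311) lost the call in 12 of the 17 alternatives, among them the omission of fasted replicate 1 (-0.46, unadjusted p in limma 0.0528), fasted replicate 3 (0.0735) or any 1 fed array (0.0501 to 0.112), and its dimmer probe sets gave -0.97 and 0.73 without passing.

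Man1a1, a mannosidase of the cis Golgi, had 207, 245 and 223 in fasted rats and 252, 273 and 275 in fed rats, with separate groups and a log2 change of -0.25 (SE 0.10). B4galt1, which adds galactose, had overlapping groups with 26.9, 44 and 33.2 in fasted rats and 25.2, 35.7 and 18.2 in fed rats (0.42, SE 0.34), and averaging over its 3 probe sets gave -0.18. Mgat1, which opens the route to complex glycans, and Fut8, which adds the core fucose, had -0.14 and -0.17.

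Of the 3 transporters of the list 2 were lower, with a median log2 change of -0.78 (-0.58 relative to all probe sets). Of 10 further transporters outside the list, 1 was lower, and their median was -0.30. Slc35b1, a nucleotide carrier of the ER membrane, had 272, 417 and 378 in fasted rats and 738, 605 and 698 in fed rats. The gap between the groups was wider than the spread within either, and the log2 change was -0.95 (SE 0.18, limma adjusted p = 0.176). A dimmer probe set of Slc35b1 had separate groups too, with 97.8, 93.4 and 106 in fasted rats and 149, 131 and 121 in fed rats, and a smaller log2 change of -0.43 that did not pass.

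Slc35a2, the UDP-galactose transporter of the Golgi, had 17.1, 24.1 and 17 in fasted rats and 28.8, 31.4 and 39.6 in fed rats (-0.78, SE 0.28, limma adjusted p = 0.295). It is dim, and it lost the call without fasted replicates 1 or 3 (unadjusted p in limma 0.0534 and 0.058) and without any 1 fed array (0.051 to 0.115). Slc35c1, the GDP-fucose transporter, had 94, 120 and 165 in fasted rats and 153, 134 and 166 in fed rats, so that its groups overlapped (-0.29, SE 0.22). Pofut2, which adds fucose to serine or threonine in the ER and is no N-glycan enzyme, had 91.8, 65.7 and 91.5 in fasted rats and 106, 88 and 98.6 in fed rats (-0.24, SE 0.18). A second probe set of Pofut2 was lower, with 27.8, 42.5 and 59.1 in fasted rats and 80.4, 72.5 and 83.9 in fed rats (-0.94, SE 0.29).

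**Figure D4:**
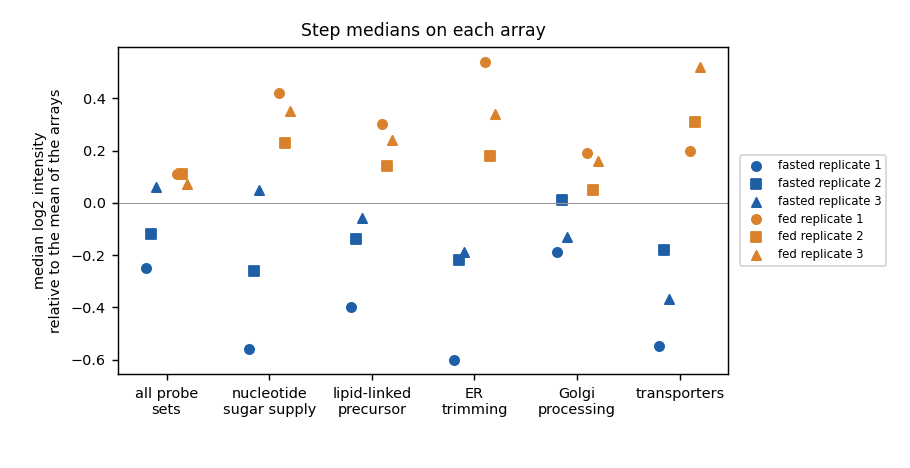
Median log2 intensity over the transcripts of each step on each array, relative to the mean of the 6 arrays, with all probe sets at the left, fasted arrays in blue and fed arrays in orange (symbols by replicate). At ER trimming the fasted arrays had -0.60, -0.22 and -0.19 and the fed arrays 0.54, 0.18 and 0.34, whereas at Golgi processing they had -0.19, 0.01 and -0.13 against 0.19, 0.05 and 0.16.

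Set side by side, the median log2 changes were -0.79 for ER trimming, -0.78 for transporters, -0.56 for nucleotide sugar supply, -0.39 for the lipid-linked precursor and -0.21 for Golgi processing. At each of these steps the 3 fasted array medians were below the 3 fed array medians, which was also so for the median of all probe sets. With 1 array left out, the ranges were -1.0 to -0.61 for ER trimming and -0.95 to -0.65 for transporters, and these overlapped with -0.67 to -0.47 for supply, which in turn overlapped barely with -0.48 to -0.30 for the precursor. Golgi processing had -0.26 to -0.17, apart from the precursor range. In the further genes of these steps, described below, the medians were -0.37, -0.30, -0.32, -0.48 and -0.13 in the same order of steps. The steps hold few transcripts each, these are not replicates of a step, and no test of the difference between steps was made. The medians of supply and of transporters include Gmppa and Slc35b1, which the study had picked out for their fall on these arrays. Besides Slc35b1, the listed transporters had -0.78 (Slc35a2) and -0.29 (Slc35c1).

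**Figure D5:**
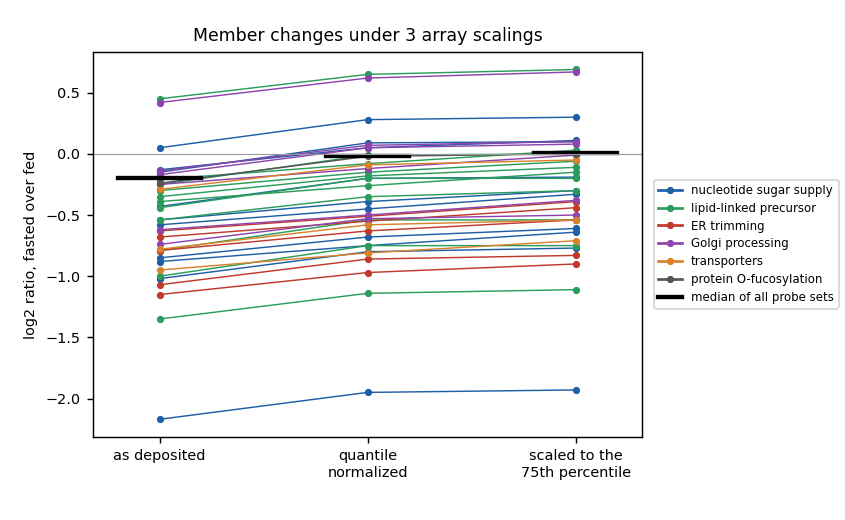
Log2 ratio of fasted over fed for each transcript (lines coloured by step) with the arrays as deposited, quantile normalized, and scaled to the 75th percentile; black bars mark the median of all probe sets, -0.20, -0.02 and 0.01. The lines move up together with the bars, and the median of the members stays below the bar, at -0.54, -0.37 and -0.30.

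Of 76 further genes of the pathway outside the oligosaccharyltransferase, 68 were measured, and 7 of these were lower (10.3%) and 1 higher. The median of the 68 log2 changes was -0.31. The share lower was thus near that of all probe sets. By step, 1 of 5 further genes of ER trimming was lower (median -0.37) and 1 of 10 further transporters (median -0.30). The lower ones included Uggt2, a relative of Uggt1, with 14.3, 12.3 and 20 in fasted rats and 29.9, 33.4 and 25.4 in fed rats (-0.95, SE 0.31). Gmds, which starts the synthesis of GDP-fucose, had 92, 67.5 and 92 in fasted rats and 143, 118 and 122 in fed rats (-0.61, SE 0.17). In both, the groups did not overlap. Gpi, the glycolytic isomerase that also feeds the hexosamine and mannose routes, had -0.81 (SE 0.26), Alg14, a partner in the early precursor, -0.72 (SE 0.28), Slc35c2, a Golgi carrier of the GDP-fucose transporter family, -1.04 (SE 0.40), and Ogt, which puts N-acetylglucosamine on nuclear and cytosolic proteins, -0.67 (SE 0.23). Hk2, a hexokinase, was below the floor of 3.27 on fasted replicates 1 and 2 and is given no fold.

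Mgat5, the transferase that adds a further branch to complex glycans, was the 1 gene of this list that was higher, with 25.3, 37.6 and 29.5 in fasted rats and 13.5, 21.7 and 18 in fed rats (0.80, SE 0.31, limma adjusted p = 0.316). All its fasted arrays were above all fed arrays. Gfpt2, a paralogue of Gfpt1 at the entry of the hexosamine route, had 417, 365 and 399 in fasted rats and 181, 409 and 175 in fed rats, and did not pass. Fed replicate 2 lay among the fasted arrays. The oligosaccharyltransferase, the complex that uses the finished precursor, had 8 of 12 subunits lower (66.7%, beside 8.43% of all probe sets). Its median was -0.66, beside -0.20 for all probe sets. Among its subunits Ddost and Dad1 had also been picked out by the study on these arrays.

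The measured markers of other cell types were 4 alpha, 2 delta, 1 PP, 13 acinar, 4 duct, 4 endothelial, 4 leukocyte and 5 fibroblast. Of these, 1 was lower and 1 higher, beside 8.43% and 2.37% of all probe sets. The summed intensity of 13 acinar markers was 58012, 68119 and 67338 in fasted rats and 63232, 65609 and 68153 in fed rats, with fasted replicate 1 the lowest. Many of these markers lie near the top of the scale, where differences are compressed. Of the 13, the acinar transcription factor Bhlha15, which also controls secretory genes, was lower, with 33.8, 31.2 and 44 in fasted rats and 74, 46.1 and 81 in fed rats (-0.86, SE 0.28). The 4 duct markers summed to 536, 520 and 430 in fasted rats and 353, 382 and 403 in fed rats, with all fasted arrays above all fed arrays, and Krt19 was higher (0.70, SE 0.15). Krt7 made up most of this sum and had 0.37, Spp1 had 0.19 and Cftr -0.25, and none of them passed. The 7 beta cell markers summed to 22725, 23264 and 24166 in fasted rats and 24338, 23603 and 24768 in fed rats. Fed replicate 2 had the highest sum of the 6 arrays for alpha, PP, leukocyte and fibroblast markers, but not for delta or endothelial markers. The alpha sums were 5060, 5844 and 5327 in fasted rats and 4482, 7862 and 3568 in fed rats. On the fed arrays the sums were 2567, 4270 and 2057 for PP, 45.8, 117 and 31.7 for leukocyte and 267, 401 and 129 for fibroblast markers. The part of other cells in the lower glycan transcripts was not tested.

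Trimming in the ER was the step with every measured member lower. The promoters of the members were therefore searched for 4 motifs that bind factors of the ER stress and cAMP responses. RefSeq windows (assembly GRCr8) of 250 bases before to 50 after the start were at hand for 34 of the 36 measured genes, 36 windows in all, and for 21842 windows of all protein-coding genes. Both strands were read. The ER stress element, CCAAT and CCACG with 9 bases between them, was in 0 member windows (0.087% of all), and its second form, ATTGG and CCACG with 1 base between them, in 0 (0.0595% of all). The cAMP response element TGACGTCA was in 0 (2.1% of all). The core TGACGTG of the unfolded protein response element was in 2 member windows (5.56%), beside 1.81% of all windows.

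The 2 windows with the core TGACGTG were those of Mogs, which was lower, and Nans, which was just outside the limit. They are shown because they are the members in which any of the 4 motifs was found, as the 150 bases before the start, 5′ to 3′ on the gene's strand, with the motif in capitals. Mogs lies on the plus strand at chr4:117179185-117179334 and Nans on the plus strand at chr5:65575874-65576023, and the motif begins at position -105 in Mogs and -53 in Nans relative to the start. A match is a description of the letters and not of a bound site, and the absence of a match says only that the letters were not in the window.
Mogs: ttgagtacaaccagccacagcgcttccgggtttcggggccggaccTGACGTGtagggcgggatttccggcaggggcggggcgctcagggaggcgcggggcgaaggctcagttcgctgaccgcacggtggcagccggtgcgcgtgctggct
Nans: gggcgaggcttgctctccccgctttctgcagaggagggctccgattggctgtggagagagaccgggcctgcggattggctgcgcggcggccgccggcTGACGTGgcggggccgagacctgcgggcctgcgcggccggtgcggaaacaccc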

How the data were processed

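Total RNA of sorted rat beta cells was hybridized to Affymetrix arrays, 3 per group. The authors used dChip (model-based expression, mismatch probes as background, arrays normalized to the one of median intensity) for the deposited intensities, with no version given in the sources used here. The study names the array RG230A for the rat, while the table holds 31042 probe sets and 57 controls, which were left out. A floor at the 10th percentile (3.27) was set, and limma 3.58.1 in R 4.3.3 was fitted to log2 intensities (intensity trend, 2 groups, two-sided), and p was adjusted by Benjamini-Hochberg over all probe sets. Of these, 20826 had 1 symbol, 436 several and 9780 none, and only the first were named. Simulated data with 200 changed probe sets were used to test the fit. Promoters and figures were handled in Python 3.11.15 with matplotlib 3.10.9.

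The values of all 6 arrays are given for each member past both thresholds and for the 2 others of each step with the largest moderated t; other probe sets are named where their call differs, and further exceptions are said. For a dim transcript the floor understates the change. Alternatives were another floor, a pseudocount, a filter on dim probe sets, scaling to the 75th percentile, quantile normalization, no trend, robust variance, array weights, linear means with unequal variances, the replicate number as a block, the mean of a gene's probe sets and leaving out each array. The members and lists were chosen with earlier results of these data known. Scan batches were not tested.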

Additional observations from a re-analysis of the deposited data

How the results depend on the processing

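After quantile normalization 8 members were lower and 1 higher (median -0.37), with 1 precursor transcript higher (median -0.20), 2 lower in ER trimming, 0 in Golgi processing (median -0.03) and 1 transporter (median -0.58). After scaling to the 75th percentile 7 were lower and 1 higher (median -0.30), with 1 precursor transcript higher (median -0.15), 1 lower in ER trimming (median -0.54), 0 in Golgi processing (median 0.04) and 1 transporter (median -0.54). Of all 31042 probe sets, 1495 were lower and 1263 higher after quantile normalization, and 1326 lower and 1426 higher after scaling to the 75th percentile. Both scalings turned the sign of Pgm3 (0.05 and 0.11), Gne (0.09 and 0.10), Mgat1 (0.07 and 0.10) and Fut8 (0.05 and 0.08), and the 75th percentile that of Alg2 (0.03). Array weights gave 5 lower in supply, 1 in Golgi processing and -0.10 for Pmm1, with 13.6% of all probe sets lower. Linear means with unequal variances gave 2 lower in ER trimming and 0 in Golgi processing, with 5.23% of all probe sets lower. The floor at the 25th percentile, no trend and the mean of all probe sets gave 1 in Golgi processing each, and the last gave -0.18 for B4galt1. Over everything tested under each of these settings, 6.59%, 8.89% and 8.5% were lower, in that order. The cause of these shifts was not tested.

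With 1 array left out, 7 to 17 members were lower (median -0.62 to -0.42), 2 to 6 in supply (median -0.67 to -0.47), 2 to 4 in the precursor (median -0.48 to -0.30), 2 to 5 in ER trimming (median -1.0 to -0.61), 0 to 2 in Golgi processing (median -0.26 to -0.17) and 1 to 2 transporters (median -0.95 to -0.65). The 17 (47.2%) were found without fasted replicate 3, where 17.9% of all probe sets were lower and their median was -0.29. Pgm3 turned without fed replicate 3 (0.02) and Pmm1 without fasted replicate 1 (-0.02) or fed replicate 2 (-0.06), its highest value being 0.20 without fed replicate 3. With the replicate number as a block 13 members were lower (36.1%, beside 6.59% of all probe sets), among them 1 transporter. The numbers did not pair the samples, since same-numbered arrays deviated together with correlations of 0, 0.01 and -0.05. In limma, 1 member had an adjusted p under 0.05 with a pseudocount, with the filter on dim probe sets and with robust variance. Of all probe sets tested, 83, 133 and 88 had one under these settings, in that order. In the other alternatives with an adjusted p, 0 members had one. Detection calls were not used here, so whether the dimmest members were above background was not tested.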
